A study of Homo sapiens with 6 samples.

Results

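Nonsense-mediated decay (NMD) is the pathway that destroys mRNAs on which translation stops too early. The RNA helicase UPF1 is recruited to the terminating ribosome and joined by UPF2 and by UPF3A or UPF3B, which link it to exon junction complexes left downstream of the stop codon. The kinase SMG1, held in check by SMG8 and SMG9, phosphorylates UPF1, and phosphorylated UPF1 brings in the endonuclease SMG6 and the adaptor SMG5, which lead to cleavage and decay of the mRNA. Described here are 9 genes of this pathway, UPF1, UPF2, UPF3A, UPF3B, SMG1, SMG5, SMG6, SMG8 and SMG9, picked by symbol in GENCODE v29 from the 18750 genes with a matched transcript, and their 71 transcripts among 98782.

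RNA sequencing was carried out on cells labelled HCT116, a human colorectal carcinoma cell line, with 3 replicates of each of 2 transfections: a short interfering RNA that targets the long noncoding RNA AC010789.1 (named si-AC010789.1), and a control siRNA (named siRNA-NC). One siRNA sequence stood for the knockdown, and, according to the study, each biological repeat used a different generation of cells. The study reports that the knockdown was verified in its RNA sequencing samples. The level of AC010789.1 was not analysed here, so the labels were not checked against the targeted RNA. Total counts ranged from 11277222 to 13443866 per library, and the counts summed over the 9 genes from 11088 to 12815. Of 12 markers of colorectal cells, 5 had a transcript among those analysed: KRT8 (444 to 850 CPM, counts scaled to the library total) and KRT18 (351 to 535 CPM) were abundant, EPCAM was at 3.10 to 5.59 CPM, CDH17 and LGR5 had at most 3 counts in any library, and the other 7, KRT19, VIL1, CDX2, CDX1, ASCL2, CEACAM5 and CEACAM6, had no transcript among those analysed here. The markers at hand therefore do not establish the labelled cell line, since of the epithelial and intestinal ones only the keratins were abundant. Of 10 markers of leukocytes, fibroblasts and endothelium, 5 had a transcript, with the fibroblast marker COL1A1 at 37.8 to 48.0 CPM. Per transcript length (TPM, transcript counts per base scaled to the same total in each library), EPCAM was below COL1A1 in every library. EPCAM ranged from 4.91 to 7.34 TPM and COL1A1 from 17.3 to 23.6 TPM. CD68, a macrophage marker, measured 6.56, 8.30 and 5.33 CPM in siRNA-NC and 2.97, 4.71 and 2.19 CPM in si-AC010789.1, without overlap (log2 fold change -1.03, unadjusted p = 0.0149 and adjusted p = 0.181 in edgeR). The 5 colorectal markers, mostly KRT8 and KRT18, summed to 985 to 1230 CPM in siRNA-NC and 801 to 1040 CPM in si-AC010789.1. The 5 others summed to 48.3 to 58.4 CPM and 46.1 to 56.6 CPM. Their part in the results was not tested.

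Many counts of UPF1, UPF3A and UPF3B were divided between transcripts that differ by a short coding segment, and the segments are shown because the isoform results below turn on them. In GENCODE v29 (GRCh38), UPF1-207 (1129 codons) carries 33 bases at chr19:18853072-18853104 on the plus strand, part of an exon, which UPF1-201 (1118 codons) lacks. UPF3A-202 (476 codons) carries a whole exon of 99 bases at chr13:114286302-114286400 on the plus strand, which is skipped in UPF3A-201 (443 codons). UPF3B-201 (483 codons) carries a whole exon of 39 bases at chrX:119840646-119840684 on the minus strand, which is skipped in UPF3B-202 (470 codons). Each line gives 30 bases of the transcript, 5′ to 3′, with the first 15 bases of the added segment in capitals where the transcript has it.
UPF1-207: ccaagactgactctgGTAATGAGGATTTAG
UPF1-201: ccaagactgactctgacatgcggctcatgc
UPF3A-202: tccttgacagcaaagGCCTAGAATATCCTG
UPF3A-201: tccttgacagcaaagatccagaatataaga
UPF3B-201: gaaccaaagattaagGTACACAGGTTTCTG
UPF3B-202: gaaccaaagattaagctgctcaagaagcca

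The first question was whether silencing was accompanied by a different summed mRNA level of each factor. None of the 9 genes passed edgeR's quasi-likelihood test at a Benjamini-Hochberg adjusted p of 0.05, against 0.982% of the 13750 genes tested (135 genes). At an unadjusted p under 0.05 there were 2 of 9, UPF2 and SMG9, against 17.2% of all genes. DESeq2 gave 0 of 9 by either measure, and called 520 of all genes at an adjusted p of 0.05. Its share of all genes by unadjusted p is not given here. The 3 values of one group lay entirely above or below those of the other for UPF1, UPF2, SMG5 and SMG9, which is 4 of 9 against 25.1% of all genes. The median absolute log2 fold change of the 9 genes was 0.12, and that of all genes tested was 0.14. In bulk RNA, fewer cells of a type and less RNA per cell cannot be told apart. The p-values set the difference between groups against the spread of these 6 libraries within their groups.

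**Figure D1:**
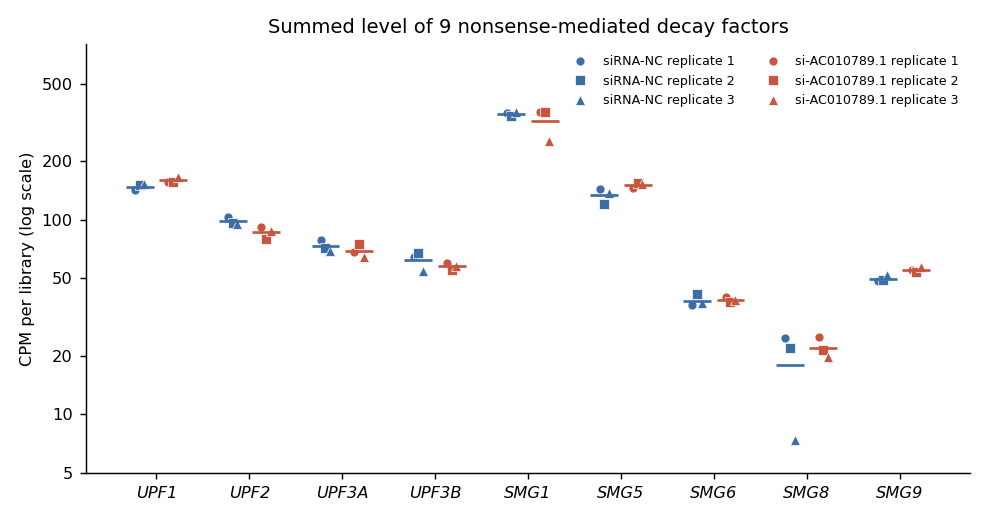
Level of each factor in CPM (log axis), gene sums over transcripts; each point is a library, its shape gives the replicate number and each bar is the mean of 3. The 2 points far from their groups are SMG8 in siRNA-NC replicate 3 (7.35 CPM) and SMG1 in si-AC010789.1 replicate 3 (255 CPM).

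UPF1 (ENSG00000005007.12, chr19:18831938-18868236, plus strand), the helicase at the centre of the pathway, measured 142, 150 and 153 CPM in siRNA-NC and 156, 157 and 166 CPM in si-AC010789.1. All 3 knockdown libraries were above all 3 controls, but by little. The means were 148 ± 5.68 and 160 ± 5.28 CPM (SD, n = 3), a log2 fold change of 0.11 (SE 0.051, edgeR adjusted p = 0.348). The 95% interval of the fold ran from 0.990 to 1.17.

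UPF2 (ENSG00000151461.19, chr10:11920022-12043170, minus strand), the bridge between UPF1 and the UPF3 proteins, gave the lowest log2 fold change of the 9. It measured 103, 96.4 and 95.1 CPM in siRNA-NC and 91.5, 79.8 and 87.3 CPM in si-AC010789.1. Every knockdown library was below every control, with means of 98.2 ± 4.24 and 86.2 ± 5.93 CPM (SD, n = 3). The log2 fold change was -0.19 (SE 0.070, 95% interval of the fold 0.782 to 0.987), with an unadjusted p of 0.0338 and an adjusted p of 0.248 in edgeR.

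UPF3A (ENSG00000169062.14, chr13:114281584-114305817, plus strand) and UPF3B (ENSG00000125351.11, chrX:119805311-119852998, minus strand) are paralogs that join UPF2 to the exon junction complex. UPF3A measured 78.3, 71.9 and 68.7 CPM in siRNA-NC and 68.6, 75.4 and 64.1 CPM in si-AC010789.1, and UPF3B measured 64.2, 67.3 and 54.4 CPM and 59.8, 55.1 and 58.1 CPM. The groups overlapped for both genes. Log2 fold changes were -0.07 for UPF3A (SE 0.085, edgeR adjusted p = 0.717) and -0.10 for UPF3B (SE 0.094, edgeR adjusted p = 0.630). With 1 library left out they ran from -0.13 to -0.02 and from -0.19 to -0.04, and the UPF3A value was -0.28 with protein_coding transcripts only.

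SMG1 (ENSG00000157106.16, chr16:18804853-18926454, minus strand), the kinase that phosphorylates UPF1, measured 352, 343 and 356 CPM in siRNA-NC and 356, 356 and 255 CPM in si-AC010789.1, so 5 libraries lay within 343 to 356 CPM and si-AC010789.1 replicate 3 stood below them. The log2 fold change was -0.12 (SE 0.13, edgeR adjusted p = 0.692), and it was 0.02 without that library. SMG1 has near-identical pseudogene copies, so its count is uncertain to the extent that reads were divided among them. SMG1P1, the most abundant copy per length (28.5 to 57.4 TPM, transcript counts per base scaled to the same total in each library), ranged from 46.6 to 66.8 CPM and was also lowest in si-AC010789.1 replicate 3. Together the 7 copies SMG1P1 to SMG1P7 summed to 93.2, 107 and 95.5 CPM in siRNA-NC and 106, 119 and 88.1 CPM in si-AC010789.1. All 7 had log2 fold changes above 0, from 0.02 to 0.57, whereas 6860 of all 13750 genes had values above 0. The copies are near-identical and come from the same 6 libraries, so their directions are not independent, and their sums overlapped between the groups. None of the 7 passed at an adjusted p of 0.05 (0.982% of all genes did) or at an unadjusted p of 0.05 (17.2% did).

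SMG8 (ENSG00000167447.12, chr17:59209400-59215247, plus strand) and SMG9 (ENSG00000105771.13, chr19:43727992-43754990, minus strand) form a complex with SMG1 and restrain its kinase activity. SMG8 measured 24.7, 22.0 and 7.35 CPM in siRNA-NC (279, 292 and 98 counts) and 25.0, 21.3 and 19.7 CPM in si-AC010789.1 (286, 267 and 243 counts). Only siRNA-NC replicate 3 stood apart, and its gap gave SMG8 a range within siRNA-NC larger than that of 98.4% of the genes tested. Per length the gap of the gene sum was smaller, with 14.7, 13.1 and 10.8 TPM in siRNA-NC and 15.1, 13.1 and 11.7 TPM in si-AC010789.1. That TPM of siRNA-NC replicate 3 includes SMG8-204, a processed transcript of 785 bases with 46 counts there and 0 in every other library. The protein_coding SMG8-201 stayed far lower there, at 3.56 CPM against 19.9 to 24.4 CPM in the others. The log2 fold change of the SMG8 sum, 0.29 (SE 0.41, edgeR adjusted p = 0.771), turned to -0.09 without siRNA-NC replicate 3. SMG9 measured 48.7, 49.1 and 51.8 CPM in siRNA-NC and 54.9, 54.0 and 57.2 CPM in si-AC010789.1, with the knockdown libraries all above the controls. Its means were 49.8 ± 1.68 and 55.4 ± 1.62 CPM (SD, n = 3) and its log2 fold change was 0.15 (SE 0.063), with an unadjusted p of 0.0481 and an adjusted p of 0.287 in edgeR. SMG9 kept a value between 0.13 and 0.18 when each library was left out in turn.

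SMG5 (ENSG00000198952.8, chr1:156249224-156282825, minus strand), an adaptor that binds phosphorylated UPF1, measured 144, 120 and 138 CPM in siRNA-NC and 145, 154 and 152 CPM in si-AC010789.1. The groups did not overlap, although siRNA-NC replicate 1 and si-AC010789.1 replicate 1 were nearly equal. The log2 fold change was 0.16 (SE 0.076, edgeR adjusted p = 0.335), and it was 0.09 without siRNA-NC replicate 2. SMG6 (ENSG00000070366.13, chr17:2059839-2303771, minus strand), the endonuclease, measured 36.3, 41.4 and 37.4 CPM in siRNA-NC and 40.1, 37.6 and 38.5 CPM in si-AC010789.1. Its groups overlapped fully, with a log2 fold change of 0.01 (SE 0.079, 95% interval -0.18 to 0.20, edgeR adjusted p = 0.955) whose sign changed in 4 of 12 alternative analyses. Exons of SMG6 overlap those of SRR (4.47 to 9.78 CPM) and HIC1 (2.22 to 5.59 CPM) on the opposite strand, and whether the counting used strand is not given in the sources used here.

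**Figure D2:**
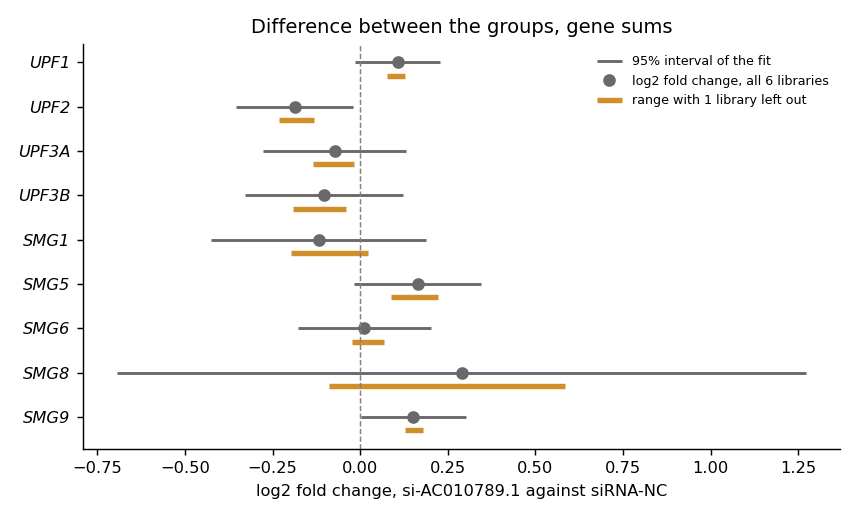
Log2 fold change of each factor (si-AC010789.1 against siRNA-NC, points) with its 95% interval from edgeR (dark lines) and the range obtained when each of the 6 libraries was left out (orange bars). The intervals of UPF2 and SMG9 lie just off 0 before adjustment for the number of genes, and only the orange bars of SMG1, SMG6 and SMG8 cross 0.

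Within groups, the factors varied to different degrees. UPF1 varied 1.08-fold between its highest and lowest siRNA-NC library and 1.06-fold in si-AC010789.1, less than most genes (only 19.2% and 14.8% of genes had a smaller range), and SMG9 varied 1.06-fold in both groups. In siRNA-NC, UPF3B varied 1.24-fold and SMG5 1.20-fold, where 62.2% and 55.5% of genes had a smaller range. SMG8 varied 3.36-fold in siRNA-NC and SMG1 1.40-fold in si-AC010789.1. The genes compared were not matched for count level. The 9 genes summed to 994, 961 and 961 CPM in siRNA-NC and 997, 990 and 898 CPM in si-AC010789.1, where the last value is the library with the low SMG1.

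Levels of different genes were compared only per transcript length, as TPM computed from annotated lengths. UPF3A had the highest mean over the 6 libraries (81.2 TPM), followed by UPF1 (71.4), SMG5 (69.8), UPF3B (67.3), SMG1 (59.8), SMG9 (35.4), UPF2 (34.2), SMG6 (15.7) and SMG8 (13.1), all mean TPM. Neighbours in this order overlapped in range except at 2 places. SMG1 (46.2 to 65.3 TPM) was above SMG9 (32.5 to 43.8 TPM), and UPF2 (29.9 to 38.5 TPM) was above SMG6 (14.8 to 17.8 TPM). The main transcript of SMG1, 16115 bases long, was the longest of the main transcripts of these genes. The TPM sums cover all transcript types, and short noncoding transcripts weigh more per count. UPF3A had 2 retained-intron and 7 processed transcripts beside 3 protein_coding ones, such as UPF3A-205 (423 bases, mean 1.36 CPM), a processed transcript. Its first place therefore holds for these sums only, and the order on protein_coding transcripts alone was not computed.

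Over the 6 libraries, correlations between pairs of the 9 genes (Pearson, 36 pairs, log2 of CPM + 1) ran from -0.79 for UPF1 with UPF3A to 0.94 for UPF1 with SMG9, with a median of -0.05 and 17 pairs above 0, and UPF1 with UPF2 gave -0.77. These are descriptions over 6 points that share their libraries and include the difference between groups. Among the 13750 genes tested, those whose profile was most like that of UPF1 were RAB11FIP3 (r = 0.9953), SOGA1 (r = 0.9867) and SPNS1 (r = 0.9856). They are the highest of many genes ranked over 6 points, so their r is high by selection. SPNS1 shares exon sequence with AC109460.3 (1.86 to 6.79 CPM). RAB11FIP3 measured 44.1, 48.4 and 49.9 CPM in siRNA-NC and 50.6, 51.5 and 55.5 CPM in si-AC010789.1.

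At the level of single transcripts, 40 of the 71 had enough counts to be tested. None passed at an adjusted p of 0.05 in edgeR (0.0135% of all 44281 transcripts tested did, 0.00903% as higher and 0.00452% as lower in si-AC010789.1). In edgeR 1 had an unadjusted p under 0.05 (5.74% of all did). DESeq2 gave 0 at an adjusted p of 0.05, where it called 676 of all transcripts. In 4 of 40 the groups did not overlap, against 14.0% of all transcripts: UPF3A-210, UPF3B-205, SMG5-201 and SMG5-204. UPF3B-205, a minor transcript, was counted 19, 17 and 12 times in the controls and 6, 4 and 6 times in the knockdown libraries (log2 fold change -1.53, SE 0.41, unadjusted p = 0.0109 and adjusted p = 0.642 in edgeR). SMG5-201, which held 96.2% to 97.9% of the SMG5 counts, measured 141, 122 and 139 CPM in siRNA-NC and 144, 152 and 151 CPM in si-AC010789.1.

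Between libraries, single transcripts of the factors varied about as widely as transcripts in general. In 29 of the 40 the highest library was more than 2 times the lowest, against 72.4% of all transcripts, while among the 9 gene sums this held for SMG8 alone, against 18.2% of all genes. How the authors' counting divided reads that fit several transcripts is not given in the sources used here. UPF2 showed the widest exchange. UPF2-202 measured 25.9 CPM in siRNA-NC replicate 2 and 68.2 to 88.9 CPM in the other 5 libraries, and UPF2-203 measured 73.3 CPM in siRNA-NC replicate 2 and 0.535 to 18.4 CPM elsewhere. The gene sum in that library, 96.4 CPM, lay between the gene sums of the other controls. Gene sums and single transcripts were scaled to separate totals, so CPM of transcripts do not add up to the CPM of their gene.

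**Figure D3:**
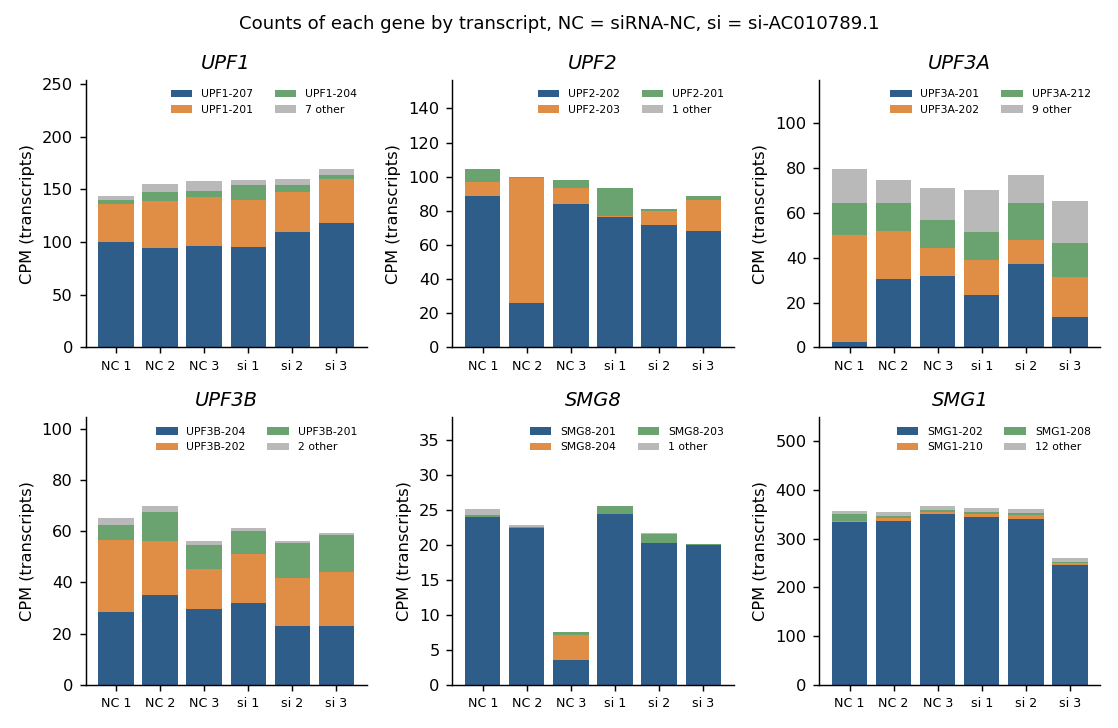
CPM of the 3 most abundant transcripts and of all others together (stacked bars) in each of the 6 libraries, for 6 of the genes. The exchange of UPF2-202 for UPF2-203 in siRNA-NC replicate 2 and of UPF3A-201 for UPF3A-202 in siRNA-NC replicate 1 left the height of the bar close to its neighbours, whereas the SMG8 bar in siRNA-NC replicate 3 is low.

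The isoform pairs shown above were compared as the share of the longer form in the counts of the pair. UPF1-207 held 73.3%, 67.8% and 67.6% in the controls and 68.5%, 74.3% and 73.8% in the knockdown libraries. The UPF1 shares stayed within 67.6% to 74.3%, and the difference of the means (69.5% ± 3.23 and 72.2% ± 3.20, SD, n = 3) was 2.68 percentage points (exact two-sided permutation p = 0.2). For this and the other pairs, the smallest p that 3 against 3 libraries allow is 0.1.

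UPF3A-202, with the extra exon, held 95.3% of its pair in siRNA-NC replicate 1 (95% Wilson interval 93.3% to 96.8%), 41.5% and 28.6% in the other controls, and 40.0%, 22.3% and 56.7% in si-AC010789.1. The spread within siRNA-NC exceeded the difference between the means (55.1% ± 35.4 and 39.6% ± 17.2, SD, n = 3, exact two-sided permutation p = 0.6). UPF3B-201 held 17.8%, 35.3% and 37.1% in the controls and 31.5%, 42.8% and 40.7% in the knockdown libraries. Its lowest share was also in siRNA-NC replicate 1, and the means (30.1% ± 10.6 and 38.3% ± 5.97, SD, n = 3) differed by 8.24 percentage points (exact two-sided permutation p = 0.4). Wilson intervals cover counting error only.

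The low SMG8 value of siRNA-NC replicate 3 lay in its main transcript. SMG8-201 was counted 267, 287 and 46 times in the controls and 274, 249 and 241 times in the knockdown libraries. The short SMG8-204, a processed transcript of 785 bases, had 46 counts in siRNA-NC replicate 3 and 0 in every other library, so these 2 transcripts together held fewer counts there than SMG8-201 alone did elsewhere. SMG8-204 was below the count filter and was not tested. For SMG1 the low library was low in the main transcript SMG1-202 (246 CPM, against 334 to 350 CPM in the other 5), and SMG1-210 and SMG1-208 held 4.05 and 2.89 CPM there.

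The minor SMG1-208, a retained-intron transcript, measured 14.6 CPM in siRNA-NC replicate 1 and 2.89 to 3.43 CPM in the others. The remaining main transcripts were steadier. SMG6-201 ranged from 26.9 to 31.7 CPM and SMG9-201 from 36.2 to 50.8 CPM, and neither passed the test (edgeR adjusted p = 0.996 and 0.982). Minor transcripts among the 3 most abundant of their genes were UPF1-204 (3.63 to 14.4 CPM), UPF2-201 (0.468 to 16.3 CPM), UPF3A-212 (12.2 to 16.4 CPM), SMG1-210 (1.62 to 8.19 CPM) and SMG5-203 (1.49 to 4.05 CPM). For SMG6 they were SMG6-213 (3.81 to 12.6 CPM) and SMG6-215 (0.624 to 2.07 CPM), for SMG9 they were SMG9-211 (2.24 to 8.10 CPM) and SMG9-207 (1.17 to 3.57 CPM), and for SMG8 it was SMG8-203 (0.156 to 1.30 CPM), which was below the filter. Of these UPF3A-212, a retained-intron transcript, kept the narrowest relative range.

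NMD itself acts on several of its own factors through features after the stop codon, such as long 3′ UTRs or exon junctions, so the annotated structure of the most abundant transcript of each gene was read. Their 3′ UTRs measured 1712 bases in UPF1, 1276 in UPF2, 891 in UPF3A, 688 in UPF3B, 4716 in SMG1, 1363 in SMG5, 1649 in SMG6, 245 in SMG8 and 3604 in SMG9. The median of these 9 was 1363 bases, that of 12361 genes was 1169 bases, and 6 of the 9 were above it. UPF3B-204 was the only one of the 9 with an exon junction more than 50 bases after the stop codon (142 bases), an arrangement found in the most abundant transcript of 4.38% of the 12361 genes. This transcript of 217 codons is annotated as protein coding. It measured 28.3, 35.1 and 29.5 CPM in siRNA-NC and 32.0, 23.0 and 23.0 CPM in si-AC010789.1 and was not called (edgeR adjusted p = 0.975). Among the 71 transcripts only SMG9-206 carries GENCODE's nonsense_mediated_decay type, with 0 or 1 count in each library.

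The second question was whether transcripts and genes on which the pathway acts differed between the groups. Transcripts of the nonsense_mediated_decay type, those with a stop codon placed as NMD recognises it, numbered 8945 from 4758 genes. They took 3.365%, 3.261% and 3.166% of all matched counts in the controls and 3.310%, 3.230% and 3.360% in the knockdown libraries. The shares overlapped, with means of 3.264% ± 0.0994 and 3.300% ± 0.0652 (SD, n = 3) and a difference of 0.0361 percentage points (exact two-sided permutation p = 0.7). Of 3416 such transcripts tested, 1737 had higher and 1679 lower values in the knockdown. Their median log2 fold change was 0.01, against 0.00 over all transcripts, and 1 passed at an adjusted p of 0.05, where 0.0135% of all transcripts did. That one, CEMIP2-210, was named after its values were seen. The 3 control libraries held 1721, 2024 and 2061 counts of it, and no knockdown library held any. With 0 counts in 1 group the size of its fold cannot be estimated. The CEMIP2 gene sum and its other transcripts are not given here, so an exchange between transcripts cannot be told from a loss.

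Of 27 genes known to be raised when NMD is impaired or to be NMD-regulated by their own splicing (stress genes such as ATF4, DDIT3 and GADD45A, snoRNA host genes such as GAS5, and splicing factors such as SRSF2 and SRSF3), 26 had a transcript and 25 were tested, and ZFAS1 was below the filter. Log2 fold changes were above 0 in 12 and below 0 in 13, with a median of -0.01 against 0.00 over all genes. CDKN1A alone was called, lower in si-AC010789.1 (0.698% of all genes were called lower and 0.284% higher). At an unadjusted p under 0.05 in edgeR there were 7 of 25, in both directions, against 17.2% of all genes. DESeq2 gave 4 of 25 by that measure. In 8 of 25 the groups did not overlap, against 25.1% of all genes. The list as a whole was not tested. CDKN1A, the cell cycle inhibitor p21 and a target of p53, measured 133, 146 and 155 CPM in siRNA-NC and 102, 107 and 101 CPM in si-AC010789.1, with no overlap (log2 fold change -0.48, SE 0.068, edgeR adjusted p = 0.0401). The call held in 3 of 12 alternative analyses and in 0 of the 6 that left out a library, with adjusted p from 2.15e-05 to 0.167 and log2 fold changes from -0.54 to -0.43. With the replicate number as a block, CDKN1A had a log2 fold change of -0.48 and an adjusted p of 0.167 in edgeR. Next by p were RPL10A, a ribosomal protein gene (301, 307 and 297 CPM against 274, 254 and 267 CPM, edgeR adjusted p = 0.119), and TBL2 (42.9, 35.7 and 40.9 CPM against 48.6, 46.3 and 46.8 CPM, edgeR adjusted p = 0.230).

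**Figure D4:**
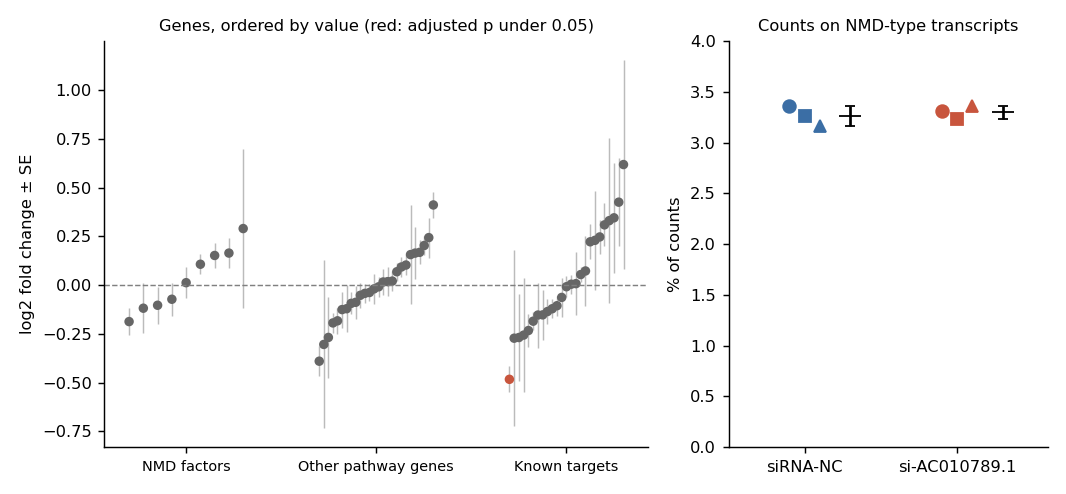
Left, log2 fold change ± SE of the 9 factors, 26 other pathway genes and 25 known targets, each ordered by value, with the gene past an adjusted p of 0.05 (CDKN1A) in red. Right, the share of counts on transcripts of the nonsense_mediated_decay type in each library (points) with mean ± SD; all 6 lie between 3.166% and 3.365%.

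Among 27 other genes of the pathway (exon junction complex subunits such as EIF4A3 and CASC3, release factors, decapping enzymes and exonucleases), 26 had a transcript and were tested. Values were higher in si-AC010789.1 in 12 and lower in 14, none was called by edgeR (0.982% of all genes were), and 6 had an unadjusted p under 0.05 (17.2% of all genes did). The median log2 fold change was -0.01, against 0.00 over all genes, of which 6860 had higher and 6890 lower values. DCP2, the enzyme that removes the mRNA cap, had the smallest p, with 45.2, 45.7 and 43.5 CPM in siRNA-NC and 59.0, 63.0 and 56.8 CPM in si-AC010789.1. The groups were well apart, with a log2 fold change of 0.41 (SE 0.068, edgeR adjusted p = 0.0575). PABPC1, the poly(A) binding protein that opposes NMD near the tail, measured 1010, 1020 and 848 CPM in siRNA-NC and 710, 731 and 756 CPM in si-AC010789.1 (log2 fold change -0.39, SE 0.078, edgeR adjusted p = 0.0854). With protein_coding transcripts only, the log2 fold change of PABPC1 was -0.19. DESeq2 called these 2 of the 26 genes, DCP2 and PABPC1, and no others of the list, where it called 520 of all genes. MOV10, a helicase that works with UPF1, measured 85.9, 91.1 and 86.3 CPM against 102, 100 and 101 CPM (log2 fold change 0.20, SE 0.050, edgeR adjusted p = 0.124), and its log2 fold change was 0.42 with protein_coding transcripts only.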

How the data were processed

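RNA sequencing libraries from cells labelled HCT116, 3 each of siRNA-NC and si-AC010789.1, were grouped by their sample labels. The deposited table holds raw counts of reads for each Ensembl transcript. The submitters' processing notes name CASAVA 1.8, TopHat2 2.0.6, GRCh38 and mm10, without roles; the counting program and its strand setting are not given in the sources used here. Of 98886 transcripts, 98782 matched GENCODE v29 (GRCh38), whose symbols, types and lengths were used, and 104 did not and were left out. Counts were summed per gene, although the design had assumed values per gene. The groups were compared with edgeR 4.0.16 (TMM, filterByExpr with minimum count 10 and total 15, quasi-likelihood test, Benjamini-Hochberg adjustment over all features tested) in R 4.3.3. CPM used TMM-scaled library sizes over the features past the filter, computed separately for genes and for transcripts. Shares were compared by exact permutation. Python 3.11.15, pandas 2.3.3, numpy 2.4.6, scipy 1.17.1 and matplotlib 3.10.9 were also used. Total counts ranged from 11277222 to 13443866, the 9 genes had 98 to 4740 counts per library, and intervals on shares cover counting error only.

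Alternatives were DESeq2 1.42.0, RLE size factors, no filter, a mean of at least 1 CPM, the replicate number as a block, each library left out, protein_coding transcripts only and, for the NMD-type share, another denominator and a mean of at least 10 counts. The fits were tested on simulated data. The members and the gene lists were chosen with earlier results of these data known. Named were the 9 genes, their 3 most abundant transcripts, those of the nonsense_mediated_decay type, list genes with an adjusted p under 0.05 or among the 3 smallest p, the SMG1 pseudogenes and the 3 genes most like UPF1. Other transcripts, such as UPF3A-210 and UPF3B-205, were named after their values were seen. No 2 libraries of the same group were identical or within sampling noise. The values of 1 gene of the pathway list are not reported here.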

Additional observations from a re-analysis of the deposited data

How the results depend on the processing

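In the main analysis and all 12 alternatives, 0 of the 9 genes were called. The log2 fold changes of UPF1, UPF2, UPF3A, UPF3B, SMG5 and SMG9 kept their sign in all 12, though not their size: SMG5 ranged from 0.0895 to 0.2209, UPF3A from -0.2751 to -0.0179 and UPF3B from -0.1910 to -0.0406. SMG1 turned to 0.0235 without si-AC010789.1 replicate 3, SMG8 to -0.0890 without siRNA-NC replicate 3, and SMG6 to -0.0326 with protein_coding transcripts only and to -0.0239, -0.0138 and -0.0074 without replicate 1 of the controls, replicate 1 of the knockdown or replicate 3 of the controls. Over all 6 libraries left out in turn, SMG1 ranged from -0.1965 to 0.0235, SMG6 from -0.0239 to 0.0687 and SMG8 from -0.0890 to 0.5844. The difference in the share of NMD-type transcripts turned to -0.0129 percentage points without siRNA-NC replicate 3, in a range from -0.0129 to 0.0865. None of the members' transcripts was called in any of 11 alternatives.

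Counts over the lists and over all features moved more. Of all genes, 135 were called by edgeR, 520 by DESeq2, 69 without a filter, 56 with protein_coding transcripts only and 12 to 37 with 1 library left out. Of all transcripts, 6 were called by edgeR, 676 by DESeq2, 0 without a filter and 0 to 6 with 1 library left out. Of the pathway list, 2 genes were called by DESeq2 and 0 to 1 with 1 library left out (PABPC1 without siRNA-NC replicate 3). Of the known targets, 0 were called without a filter, 0 with protein_coding transcripts only and 0 to 1 with 1 library left out (SRSF2 in place of CDKN1A without siRNA-NC replicate 2). With the replicate number as a block, 0 of all genes, 0 transcripts and 0 known targets were called. Same-numbered libraries of the 2 groups had correlations of 0.09, 0.003 and 0.0 over 13750 genes, and not every library correlated best with its own number. These are correlations of what sets libraries of a group apart, not of expression levels. The study states that repeats came from different generations of cells, while whether same-numbered libraries of both groups share a generation is not given in the sources used here. The causes were not tested. With 3 libraries a group, the intervals leave room for differences such as a fold of 0.782 for UPF2 or 1.17 for UPF1.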
